A study of Mus musculus with 9 samples.

Results

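The cell cycle genes examined here are a list of 38, running from the cyclins and kinases that start a division to the proteins of the mitotic spindle. A gene was taken when the array's annotation gave a probe set to its symbol alone, and the probe set with the highest mean log2 signal stood for it. By this rule 37 of the 38 genes were found among 18193 genes on the array, and Ccnb1 had no such probe set. Of the 37, 25 were bright enough to be tested, meaning above the array's median on at least 3 of 8 arrays, and 12 were not.

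The mice were MRL +/+ females, from a strain that develops autoimmunity, and were killed at 11 weeks of age. One group received dichloroacetyl chloride (DCAC), another dichloroacetic anhydride (DCAA), each at 0.2 mmol/kg in 100 µl of corn oil, injected into the peritoneum 2 times a week for 6 weeks. The third group is called untreated in the sample labels and is said to have received corn oil alone in the description of the design. Each group had 3 mice processed separately, with 1 array per mouse, and the livers were collected 24 h after dosing ended. Both compounds carry the dichloroacetyl group, bound to chloride in DCAC and to dichloroacetate in DCAA.

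The cell cycle is driven by kinases that work only while bound to a cyclin. D-type cyclins with Cdk4 and E-type cyclins with Cdk2 lift the block on the E2F factors, which then switch on the genes of DNA replication, and A-type and B-type cyclins with Cdk1 carry the cell through mitosis. Most hepatocytes of an adult liver are out of the cycle and re-enter it after injury or loss of tissue, when Ccnd1 is among the genes induced. Blood-forming and immune cells in the liver can divide as well. In whole liver, fewer cells of a type and less RNA per cell cannot be told apart.

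Signals are the deposited array intensities on a linear scale, and a difference is one between group means of the log2 signal, after low signals were raised. A fold is the antilog of such a difference, so it is not the ratio of the mean signals printed beside it. The array labelled control 2 did not carry a liver profile. Its summed signal over 11 kidney markers was 144132, against 1179 to 2204 on the other arrays, and over 11 hepatocyte markers it was 27688, against 388902 to 538649. Comparisons therefore use the other 8 arrays, with 2 controls, and control 2 is given apart. Among the 8 arrays, Spearman correlations lay between 0.859 and 0.929. Control probe sets of pyruvate carboxylase show how far labelling reached along a transcript, as the signal near its 3' end over that near its 5' end. This 3'/5' ratio was low, at 2.85 to 3.99, for controls 1 and 3 and for DCAC 1 and 2. A high ratio, 6.43 to 12.8, was found for DCAC 3 and all 3 DCAA arrays, so no control and all DCAA arrays are in the high class, and a fit with this class as a block sets DCAA against control through the DCAC arrays. The number of arrays limits the precision: over the 25 genes tested, the median 95% interval of a compound against control reached 1.64-fold either way.

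No cell cycle gene differed between groups in limma at the threshold of 0.05, after Benjamini-Hochberg adjustment across the 24531 probe sets tested. For DCAC against control 0 of 25 passed, and 0.0326% of all probe sets did. For DCAA against control 0 of 25 passed, against 0.0815% of all. Between DCAC and DCAA 0 of 25 passed, against 0.00408% of all, and for the 6 treated mice together against control 0 of 25, against 0.0734%. Simulated 2-fold differences of 200 probe sets were recovered at 0% for DCAC against control and at 4% for DCAA against control, and 4-fold differences at 59.5% for each. For DCAC against DCAA 19.5% of 2-fold and 65.5% of 4-fold differences were recovered, and for treated mice against control 23% and 62.5%. Most simulated 2-fold differences were thus not detected. The 200 were drawn from all probe sets tested, and the 25 genes were not simulated apart. Their median interval against control, 1.64-fold either way, was wider than the 1.56-fold of all probe sets tested.

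At an unadjusted p under 0.05, 2 of the 25 genes tested stood out for DCAC against control, Ccnd1 (lower) and Tk1 (higher), against 5.02% of all probe sets. For DCAA against control there were 6, with Ccnd1 and Foxm1 lower and Cdc20, Tk1, Rrm2 and Cdk1 higher, against 12.6% of all probe sets. Between the compounds there were 2, Cdc20 and Rrm2, both lower with DCAC, against 9.28%. For treated mice against control there were 3, Ccnd1 and Foxm1 (lower) and Tk1 (higher), against 7.22%. The comparisons with control share the same 2 control arrays. Over the 25 genes tested the median difference was -0.08 for DCAC and -0.10 for DCAA. It was -0.13 for DCAC minus DCAA and -0.09 for treated mice. Over all probe sets tested these medians were -0.029, -0.008, -0.015 and -0.027. With the 12 dim genes added, the medians over the 37 genes were -0.08, -0.02, -0.12 and -0.05. Without the filter on low signal, those of all 45037 probe sets were -0.086, 0.14, -0.16 and 0.037. These depend on the level to which each array's low signals were raised. This low-signal level was 48.8 to 53.6 on DCAC arrays, 54.4 and 55.4 on controls and 56.5 to 67.4 on DCAA arrays. A probe set under it on every array, such as 1447840_x_at of E2f1, gets -0.087, 0.16, -0.25 and 0.037 from the level alone. Of the 37 genes, 15 had a positive difference with DCAC and 18 with DCAA. Of all probe sets tested, which leave out dim ones, 46.2% and 49.2% had one. These counts rest on the brightest probe set of each gene. Of 22 other tested probe sets, of 13 of the genes, 0 passed the threshold in any comparison, and 2 for DCAC, 5 for DCAA, 1 for DCAC minus DCAA and 2 for treated mice had an unadjusted p under 0.05.

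**Figure D1:**
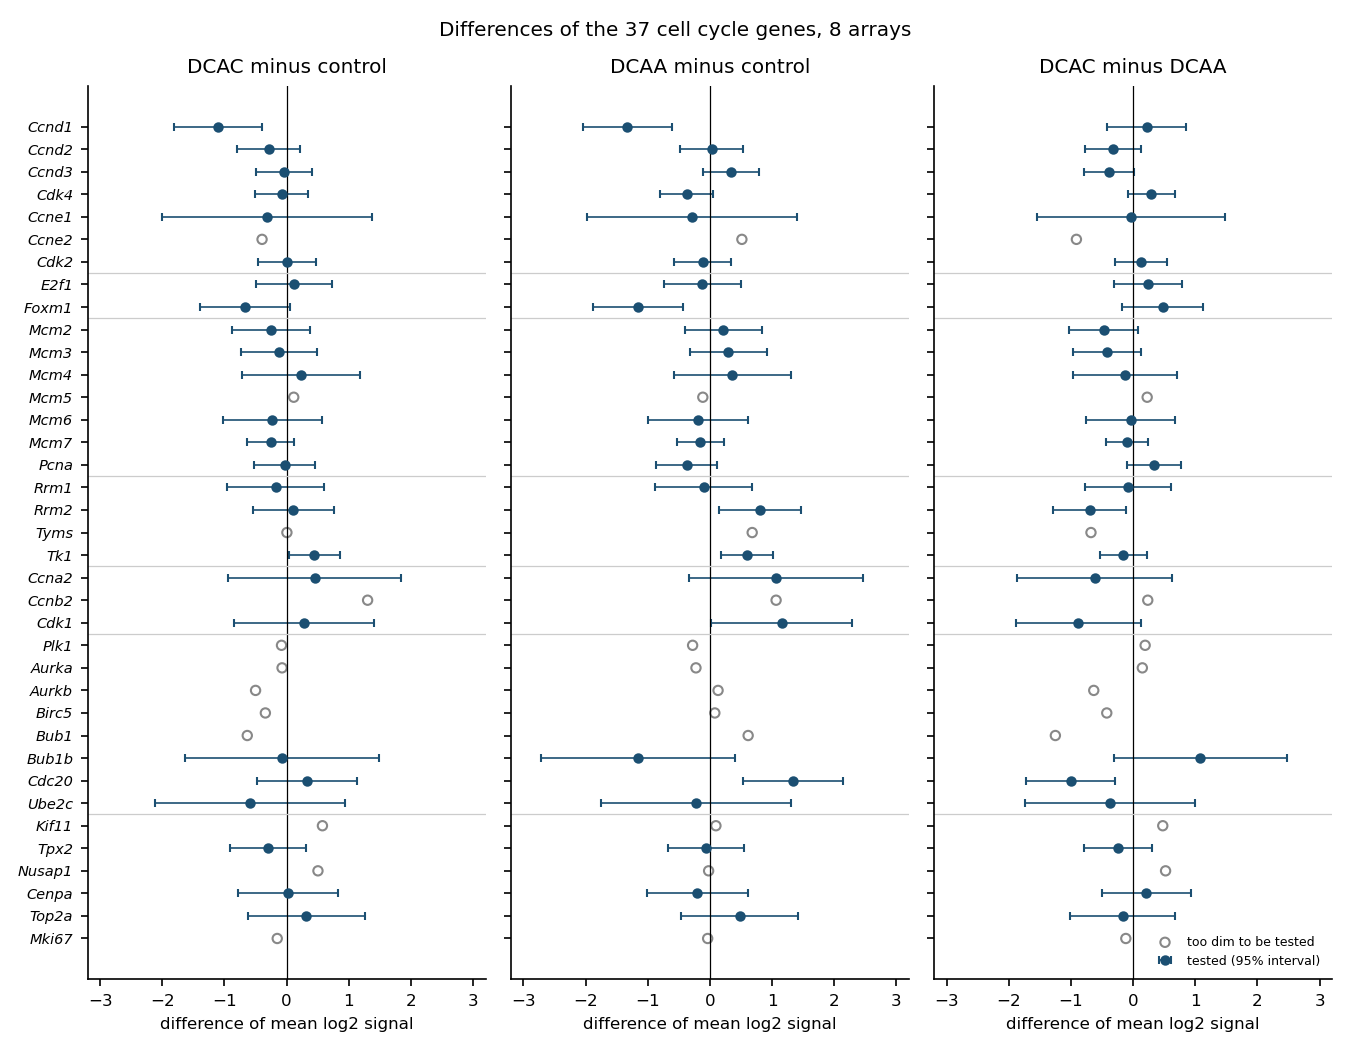
Difference between group means of log2 signal (x axis) for each of the 37 cell cycle genes (y axis), with its 95% limma interval where the gene was tested (filled points, 25 genes) and without one where it was too dim (open circles, 12 genes). The intervals of Ccnd1 lie left of zero in both comparisons with control, and those of most other genes cross zero.

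Ccnd1 encodes cyclin D1, the D-type cyclin that couples growth signals to entry into the cycle, and it had the smallest p of the list for DCAC, for DCAA and for treated mice against control. Its signal was 3618 on control 1 and 3003 on control 3. With DCAC it was 1287, 1200 and 2327 on arrays 1 to 3, and with DCAA 2056, 1182 and 933. Every treated array thus lay below both controls, and the DCAC and DCAA arrays overlapped. The mean was 3311 ± 435 in controls (SD, n = 2), 1604 ± 627 with DCAC (SD, n = 3) and 1390 ± 590 with DCAA (SD, n = 3). The log2 difference was -1.11 for DCAC, with a 95% interval from -1.82 to -0.39 (unadjusted p = 0.00533, limma adjusted p = 0.696), which is 2.15-fold lower. For DCAA it was -1.33, from -2.04 to -0.62 (unadjusted p = 0.00153, limma adjusted p = 0.168), or 2.51-fold lower. DCAC minus DCAA gave 0.22, from -0.42 to 0.86 (limma adjusted p = 0.817), an interval that holds differences of either sign. For treated mice against control the difference was -1.22 (limma adjusted p = 0.263).

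The other probe sets of Ccnd1 gave further readings of the same RNA, not of other mice. On 1417420_at the controls read 3009 and 2331, the DCAC arrays 1038, 1153 and 1656 and the DCAA arrays 1258, 1134 and 922, again with no overlap between controls and treated arrays. Its differences were -1.08 for DCAC (limma adjusted p = 0.315), -1.27 for DCAA (limma adjusted p = 0.0850) and -1.18 for treated mice (limma adjusted p = 0.0755). The dimmer 1417419_at read 924 and 822 in controls, 283, 407 and 835 with DCAC and 651, 477 and 43.5 with DCAA, so 1 DCAC array lay above 1 control. All 3 probe sets had a lower mean with each compound, and none passed the threshold. Without the array DCAA 1, the difference for DCAA on the brightest probe set was -1.65 and passed (limma adjusted p = 0.0427). With the 3'/5' class as a block the DCAA difference was -2.23 (limma adjusted p = 0.352). Among arrays of the low 3'/5' class, the controls at 3618 and 3003 stood against DCAC 1 and DCAC 2 at 1287 and 1200. On control 2 Ccnd1 read 7146, above every other array.

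**Figure D2:**
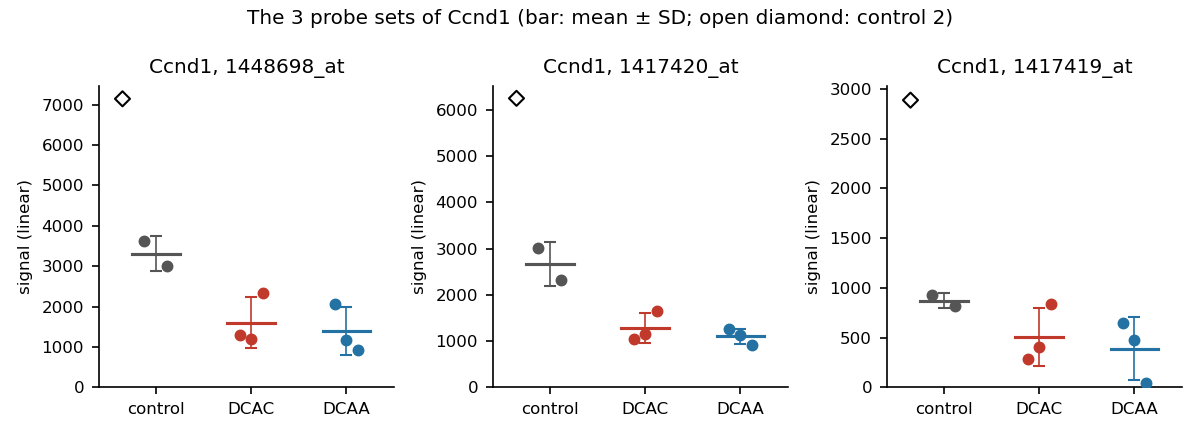
Signal (y axis, linear scaled array units) of the 3 Ccnd1 probe sets on each array, with filled points for the 8 arrays compared, bars for the group mean ± SD and an open diamond for control 2. On 1448698_at and 1417420_at every treated array lies below both controls, and on 1417419_at 1 DCAC array lies between them.

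Of the other D-type cyclins, Ccnd2 read 742 and 669 in controls, 714, 570 and 469 with DCAC and 807, 773 and 595 with DCAA on its brightest probe set. Controls and treated arrays overlapped, at -0.29 for DCAC and 0.03 for DCAA. On another probe set, 1416123_at, Ccnd2 read 342 and 283 in controls, 379, 351 and 140 with DCAC and 179, 104 and 104 with DCAA. There the DCAA arrays lay below both controls, at -1.32 (unadjusted p = 0.0171, limma adjusted p = 0.298), while DCAC overlapped with the controls at -0.23. DCAC minus DCAA gave 1.09 (unadjusted p = 0.0256, limma adjusted p = 0.495) on it, and -0.32 on the brightest, so the probe sets of Ccnd2 did not share a direction.

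Ccnd3, cyclin D3, read 1064 and 969 in controls, 886, 1025 and 1046 with DCAC and 1062, 1207 and 1643 with DCAA. Every DCAC array lay below every DCAA array, at -0.38 for DCAC minus DCAA (limma adjusted p = 0.543), with -0.05 and 0.34 for DCAC and DCAA against control. Its other tested probe set gave -0.76 and -0.29. Cdk4, the kinase partner of D-type cyclins, read 725 and 659 in controls, 685, 629 and 646 with DCAC and 524, 509 and 568 with DCAA. The DCAA arrays lay below all the others, at a difference of -0.38 from control (limma adjusted p = 0.446) and of 0.29 for DCAC minus DCAA (limma adjusted p = 0.591). On 1422441_x_at, another Cdk4 probe set, the controls read 688 and 771, the DCAC arrays 515, 416 and 592 and the DCAA arrays 569, 552 and 545. All 6 treated arrays lay below both controls there, at -0.54 for DCAC (unadjusted p = 0.0284, limma adjusted p = 0.956) and -0.39 for DCAA (limma adjusted p = 0.481). Cdk2, the partner of E-type cyclins, differed by 0.01 and -0.12. Ccne1, cyclin E1, spread from 49.5 on DCAA 1 to 512 on DCAA 2, within a single group, and differed by -0.32 with DCAC and -0.28 with DCAA. Another Ccne1 probe set, 1441910_x_at, had the opposite sign, at 0.75 (limma adjusted p = 0.968) and 0.88 (limma adjusted p = 0.441), with all treated arrays above both controls. Ccne2, cyclin E2, was too dim to be tested and read 19.4 and 108 in controls, 37.4, 36.6 and 72.1 with DCAC and 80.2, 138 and 123 with DCAA. On the brightest probe sets of these 7 genes the median difference was -0.29 for DCAC and -0.12 for DCAA.

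Foxm1 encodes a transcription factor that activates genes of the G2 phase and of mitosis. Its signal was 707 and 691 in controls, 590, 338 and 419 with DCAC and 392.1, 396.6 and 199 with DCAA. Controls lay above every treated array, and the compounds overlapped in part. The difference was -0.68 for DCAC (limma adjusted p = 0.967) and -1.15 for DCAA, from -1.88 to -0.43 (limma adjusted p = 0.209), with 0.48 for DCAC minus DCAA (limma adjusted p = 0.610). The other 3 Foxm1 probe sets were too dim to be tested, and the mean of all 4 differed by -0.18 for DCAC and -0.21 for DCAA. That mean depends in part on the low-signal level, as 1448834_at was under it on every array. E2f1, which activates genes of replication, read 316 on each control, 453, 307 and 293 with DCAC and 303, 265 and 307 with DCAA, with differences of 0.12 and -0.12.

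The replicative helicase, a ring of the Mcm2 to Mcm7 proteins that opens the DNA, and Pcna, the clamp that holds the polymerase, were measured on 7 genes. On their brightest probe sets the differences ran from -0.26 to 0.23 with DCAC and from -0.37 to 0.36 with DCAA, with medians of -0.12 and -0.11. Mcm2 read 310 and 358 in controls, 334, 292 and 222 with DCAC and 461, 397 and 318 with DCAA, so that every group overlapped with the controls. Its difference was -0.26 for DCAC (limma adjusted p = 0.985) and 0.22 for DCAA (limma adjusted p = 0.792). Pcna read 1635 and 1825 in controls, 1956, 1749 and 1406 with DCAC and 1708, 1379 and 1007 with DCAA. Its groups overlapped too, at -0.03 for DCAC (0.04 with arrays scaled to a common median) and -0.37 for DCAA (limma adjusted p = 0.528), and the values for DCAA were lowest on DCAA 3. Other tested probe sets of the helicase genes reached further from zero. On 1420029_at Mcm3 read 119 and 83.6 in controls, 139, 77.0 and 208 with DCAC and 180, 220 and 324 with DCAA, with the DCAA arrays above both controls. Its difference there was 0.39 for DCAC and 1.23 for DCAA (unadjusted p = 0.0452, limma adjusted p = 0.390). This probe set was above the array's median on DCAC 3 and the DCAA arrays only. It was thus tested because of the DCAA arrays, and its p is no support for a difference. For DCAA the brightest Mcm3 probe set gave 0.30, and the dim ones, not tested, gave -0.93, -0.29 and -0.08. On 1416251_at Mcm6 differed by -1.20 with DCAC (limma adjusted p = 0.978) and by -0.37 with DCAA.

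Mcm7 was the helicase gene whose brightest probe set did not overlap between controls and DCAC or DCAA. It read 1289 and 1387 in controls, 973, 1201 and 1203 with DCAC and 1287, 1155 and 1157 with DCAA, at -0.25 (limma adjusted p = 0.978) and -0.16 (limma adjusted p = 0.746). Its other 3 tested probe sets gave -0.18, -0.11 and 0.33 for DCAC, and -0.51, -0.61 and 0.53 for DCAA, so they did not share a direction. Groups that do not overlap were frequent on these few arrays. For DCAC against control they were found for 4 of the 25 genes tested, against 23.7% of all probe sets, and for DCAA against control for 10 of 25, against 31.8%. Between DCAC and DCAA there were 4, against 13.9%, and for treated mice against control 4, against 10.6%.

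**Figure D3:**
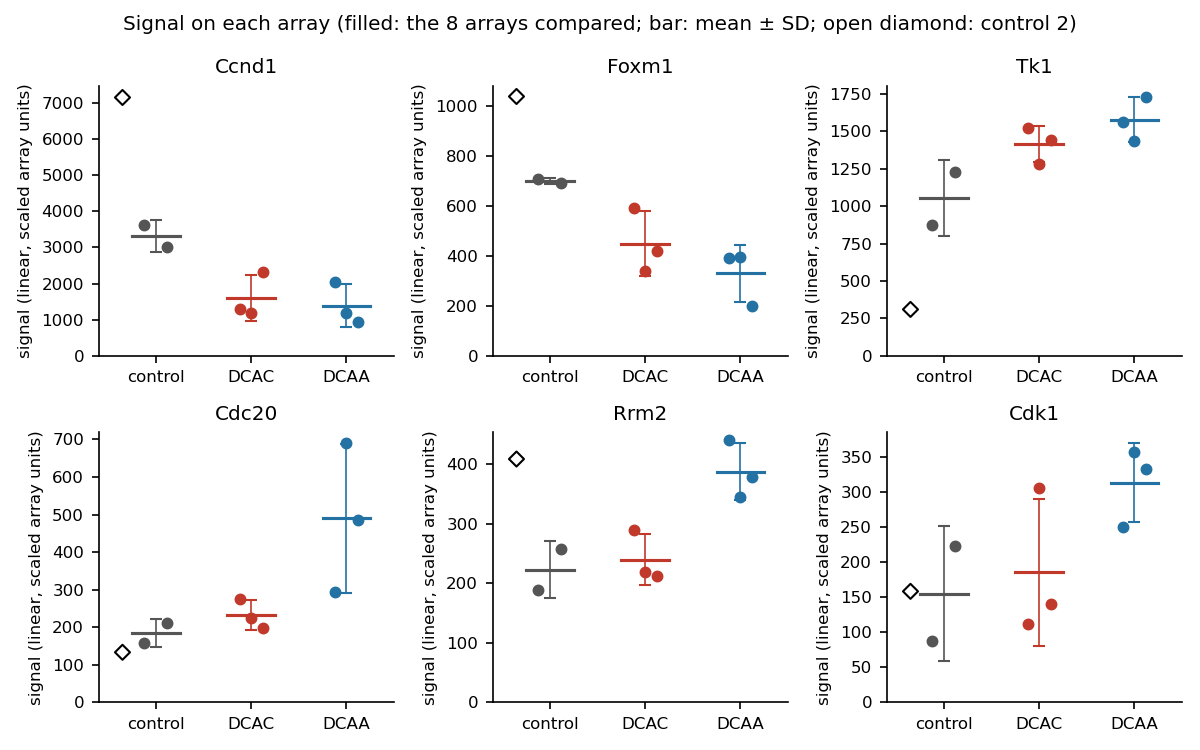
Signal (y axis, linear scaled array units, each panel with its own range from 0) of the 6 genes with an unadjusted p under 0.05 against control, with filled points for the 8 arrays compared, bars for the group mean ± SD and an open diamond for control 2. Ccnd1 and Foxm1 are higher in both controls than in every treated array, Tk1 is lower, and Cdc20, Rrm2 and Cdk1 stand apart mainly on the DCAA arrays.

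Genes of deoxynucleotide supply, which make the building blocks of DNA, included 2 with higher signal under DCAA. Tk1, thymidine kinase, read 872 and 1231 in controls, 1523, 1282 and 1441 with DCAC and 1564, 1433 and 1731 with DCAA. All 6 treated arrays lay above both controls, and control 1 lay well below control 3. The difference was 0.45 for DCAC, from 0.03 to 0.86 (limma adjusted p = 0.967), 0.60 for DCAA, from 0.19 to 1.02 (limma adjusted p = 0.243), and -0.15 for DCAC minus DCAA, from -0.53 to 0.22 (limma adjusted p = 0.774). Without control 1 these were 0.20 for DCAC and 0.35 for DCAA, and with control 2, where Tk1 read 311, they were 1.03 and 1.18.

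Rrm2, the inducible subunit of ribonucleotide reductase, read 189 and 257 in controls, 289, 218 and 213 with DCAC and 440, 345 and 378 with DCAA. The DCAA arrays lay above all the others, and DCAC and controls overlapped. The difference was 0.11 for DCAC (limma adjusted p = 0.992), 0.81 for DCAA, from 0.15 to 1.46 (limma adjusted p = 0.311), and -0.70 for DCAC minus DCAA, from -1.29 to -0.11 (limma adjusted p = 0.491). Another tested probe set gave 0.42 and 0.56 against control, the last, too dim to be tested, -1.12 and -0.79, and the mean of all 3 gave 0.19 for DCAA. Rrm1, the other subunit of the enzyme, read 326 and 375 in controls, 399, 388 and 190 with DCAC and 403, 353 and 247 with DCAA, with overlap throughout on its brightest probe set. On 1415878_at Rrm1 read 240 and 237 in controls, 415, 322 and 379 with DCAC and 237, 314 and 397 with DCAA. There the DCAC arrays lay above both controls, at 0.63 (unadjusted p = 0.0521, limma adjusted p = 0.967), and DCAA overlapped with them at 0.37. Tyms, thymidylate synthase, was too dim to be tested and read 5.40, 18.6 and 235 on the DCAA arrays.

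Among the mitotic cyclins and their kinase, Cdk1, the kinase that starts mitosis, read 87.3 and 223 in controls, 112, 306 and 141 with DCAC and 251, 358 and 333 with DCAA. The DCAA arrays lay above both controls, and 1 DCAC array lay among them. The difference was 0.27 for DCAC (limma adjusted p = 0.991), 1.15 for DCAA, from 0.03 to 2.28 (limma adjusted p = 0.391), and -0.88 for DCAC minus DCAA, from -1.89 to 0.13 (limma adjusted p = 0.563). The 2 controls were far apart, and the DCAA difference was 0.47 without control 1 and 1.83 without control 3. Cdk1 was above the array's median on control 3, DCAC 2 and the DCAA arrays, so it was tested only because of the DCAA arrays. Ccna2, cyclin A2, read 207 and 25.9 in controls, 151, 102 and 197 with DCAC and 354, 237 and 131 with DCAA, at 0.45 and 1.07 (limma adjusted p = 0.524 for DCAA). Ccnb2, cyclin B2, was too dim to be tested: it read 28.4 and 28.2 in controls, both under the level to which low signals were raised, 205, 73.6 and 164 with DCAC and 80.3, 90.8 and 208 with DCAA.

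Cdc20 activates the ubiquitin ligase that ends mitosis, and it had the largest positive difference among the genes tested. It read 159 and 212 in controls, 275, 224 and 198 with DCAC and 294, 690 and 484 with DCAA. The DCAA arrays lay above all the others, with wide spacing between them, and DCAC and controls overlapped. The difference was 0.33 for DCAC (limma adjusted p = 0.986), 1.33 for DCAA, from 0.53 to 2.14 (limma adjusted p = 0.202), and -1.003 for DCAC minus DCAA, from -1.72 to -0.28 (limma adjusted p = 0.465). The other tested probe set, 1416664_at, read 213 and 289 in controls and 365, 279 and 267 with DCAA, with overlap, at 0.28 for DCAA. On DCAC 3, which shares the high 3'/5' class with the DCAA arrays, Cdc20 read 198, Rrm2 213 and Cdk1 141, each below every DCAA array. DCAC 3 is 1 array, and it also had the lowest mean over the 37 genes (-0.27) and the lowest array median (157). The part of the 3'/5' class in the DCAA values of these genes was not tested.

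The promoters of Cdk1, Cdc20 and Rrm2 are shown because these genes had a higher mean with DCAA at an unadjusted p under 0.05 and because cell cycle promoters share short elements. Tk1, the other such gene, held none of the motifs below and is not printed. They were read from RefSeq (GRCm38.p6), 250 bases before to 50 after the start, and 30 of the 38 genes had an entry. Capitals mark 3 motifs searched on both strands: CHR (TTTGAA), the CCAAT box (CCAAT, on the other strand ATTGG) and an E2F motif (TTTNNCGC), none of which overlapped another here.
Cdk1, chr10:69352863-69353162, minus strand: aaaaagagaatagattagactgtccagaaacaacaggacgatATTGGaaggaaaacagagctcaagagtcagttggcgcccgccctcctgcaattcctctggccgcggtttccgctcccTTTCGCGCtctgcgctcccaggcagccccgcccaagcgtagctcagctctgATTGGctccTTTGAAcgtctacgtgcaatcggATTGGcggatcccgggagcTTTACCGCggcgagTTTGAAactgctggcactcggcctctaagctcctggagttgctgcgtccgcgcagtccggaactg
Cdc20, chr4:118437294-118437593, minus strand: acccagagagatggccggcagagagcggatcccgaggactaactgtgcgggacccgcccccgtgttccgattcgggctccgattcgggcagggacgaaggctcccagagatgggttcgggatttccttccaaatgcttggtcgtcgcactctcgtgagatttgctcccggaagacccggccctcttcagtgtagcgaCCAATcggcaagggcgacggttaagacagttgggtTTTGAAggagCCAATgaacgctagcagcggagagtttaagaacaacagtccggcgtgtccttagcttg
Rrm2, chr12:24708004-24708303, plus strand: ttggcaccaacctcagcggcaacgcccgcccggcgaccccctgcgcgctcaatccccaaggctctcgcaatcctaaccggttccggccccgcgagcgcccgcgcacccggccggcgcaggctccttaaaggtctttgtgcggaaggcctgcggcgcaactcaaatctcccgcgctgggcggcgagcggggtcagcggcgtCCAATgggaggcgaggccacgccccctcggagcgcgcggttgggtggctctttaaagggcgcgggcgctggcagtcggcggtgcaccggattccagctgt

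The Cdk1 window held all 3 motifs, with 2 matches of CHR, 3 of CCAAT and 2 of the E2F motif. The Cdc20 window held 1 match of CHR and 2 of CCAAT, and that of Rrm2 held 1 of CCAAT. Over the 32 windows of listed genes, CHR was found in 12 (37.5%), CCAAT in 24 (75.0%) and the E2F motif in 7 (21.9%), where all 32851 windows of the same length gave 17.9%, 37.4% and 5.17%. Genes with CHR had a median difference of 0.03 for DCAA against control and genes without it -0.10, and for the E2F motif the medians were -0.11 with it and -0.03 without. A match is a description of the letters and not of a bound site.

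Mitotic kinases and checkpoint genes were mostly too dim to be tested. Plk1, Aurka and Aurkb, kinases of mitotic entry and division, and Birc5 and Bub1, which act at the centromere, did not reach the brightness required, and Plk1 was under its array's 25th percentile on 6 of 8 arrays. Bub1 read 77.4 and 149 in controls, 102, 66.7 and 45.6 with DCAC and 122, 195 and 187 with DCAA, and Aurkb 134 and 157, then 70.9, 105 and 145, then 161, 151 and 165. For both, every DCAC array lay below every DCAA array. The low-signal level has the same order, at 48.8 to 53.6 on DCAC and 56.5 to 67.4 on DCAA arrays. The share of dim probe sets whose groups do not overlap was not counted, so this order is not read as a result. Bub1b, of the spindle checkpoint, read 115 and 201 in controls, 242, 172 and 71.8 with DCAC and 77.1, 20.6 and 31.5 with DCAA. The DCAA arrays lay below both controls, at -1.16 with an interval from -2.72 to 0.40 (limma adjusted p = 0.535). DCAA 2 and DCAA 3 were under the low-signal level, so this difference depends on that level. Bub1b was above the array's median on control 3, DCAC 1 and DCAC 2 only. Ube2c, a ubiquitin-conjugating enzyme of mitotic exit, spread from 8.20 on DCAC 3 to 311 on DCAA 3. Over the 8 genes of this group the median difference was -0.21 for DCAC and -0.07 for DCAA.

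Mki67, the usual marker of dividing cells, was above the array median on 0 of the 8 arrays and was not tested. It read 95.4 and 127 in controls, 167, 120 and 12.3 with DCAC and 145, 127 and 43.1 with DCAA, so the groups overlapped and the lowest values fell on 1 array of each compound. Top2a, the topoisomerase that separates sister chromosomes, read 136 and 205 in controls, 236, 278 and 136 with DCAC and 175, 239 and 302 with DCAA. Its groups overlapped as well, at 0.31 for DCAC (limma adjusted p = 0.990) and 0.48 for DCAA (limma adjusted p = 0.683). Tpx2, of the spindle, read 487 and 483 in controls, 530, 415 and 277 with DCAC and 446, 427 and 532 with DCAA, with overlap between the groups, at -0.30 for DCAC (limma adjusted p = 0.980) and -0.06 for DCAA. Nusap1 was too dim to be tested and read 121 and 107 in controls, 186, 142 and 159 with DCAC and 112, 113 and 112 with DCAA, so the DCAC arrays lay above all the others. Kif11 is a spindle motor, Nusap1 binds microtubules and Cenpa is the histone of the centromere. On their brightest probe sets these genes and Tpx2 differed by -0.30 to 0.58 with DCAC and by -0.20 to 0.10 with DCAA. On 1452314_at, too dim to be tested and with both controls under the low-signal level, Kif11 differed by 1.08 and 0.91. On 1428104_at, which was tested, Tpx2 differed by -0.04 and 0.57.

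**Figure D4:**
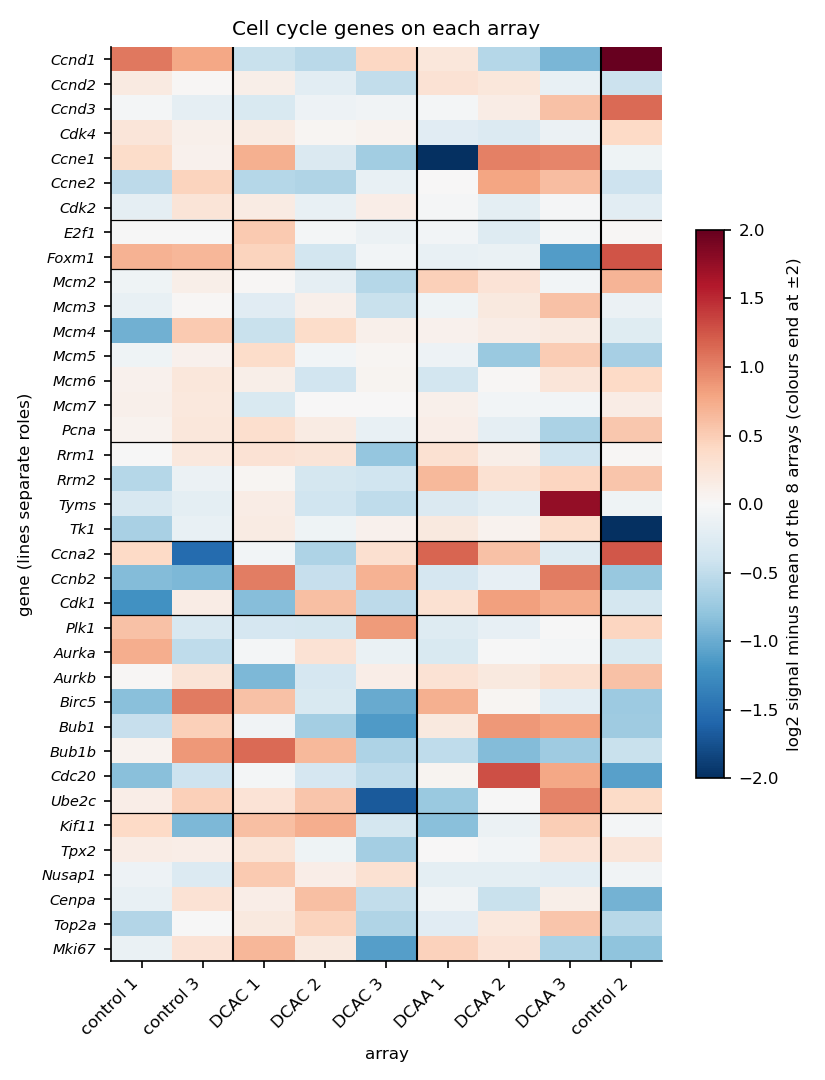
Log2 signal minus the gene's mean over the 8 arrays (colour, ending at ±2) for the 37 cell cycle genes (rows, lines between roles) on each array (columns), with control 2 last and not part of the mean. Ccnd1 and Foxm1 are red on both controls, and DCAC 3 is blue for more genes than DCAC 1.

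Across all 37 genes the arrays of the 3 groups overlapped. The mean of a gene's log2 signal minus its mean over the 8 arrays was -0.09 and 0.07 in controls, 0.12, -0.05 and -0.27 with DCAC and -0.04, 0.08 and 0.18 with DCAA. DCAC held both the second highest and the lowest array. DCAC 3, the lowest, also had the highest 3'/5' ratio, at 12.8, and the lowest array median, at 157, while DCAA 3, the highest, had the highest array median, at 214. Between 20 and 26 of the 37 genes lay above their array's median on each of the 8 arrays, and 21 did on control 2. On control 2, 9 genes lay above all 8 arrays, among them Ccnd1, Ccnd3, Foxm1 and Pcna, and 5 lay below them all, among them Tk1 and Cdc20. With control 2 included, 0 of 25 genes passed in each comparison, where 0% of all probe sets were called.

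Other cell cycle genes, from lists with no member in common with the 38, gave the same count. Of the cell cycle inhibitors 17 of 20 were tested and 0 passed in any comparison (limma). At an unadjusted p under 0.05 there were 4 for DCAC, all lower, which is 23.5% against 5.02% of all probe sets, and 5 for DCAA, 3 higher and 2 lower, which is 29.4% against 12.6%, with a median difference of -0.08 for DCAC and -0.01 for DCAA over all 20. Cdkn1a, which encodes the p21 inhibitor of cyclin-dependent kinases, read 602 and 890 in controls, 214, 300 and 106 with DCAC and 510, 336 and 233 with DCAA. Every treated array lay below both controls, at -1.95 for DCAC, from -2.90 to -0.998 (limma adjusted p = 0.364), and -1.10 for DCAA (limma adjusted p = 0.336). Its control 2 value, 389, lay among those of the treated arrays.

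Of 42 genes of the replication origin and fork, 34 were tested and 0 passed. At an unadjusted p under 0.05 there were 2 (5.88%) for DCAC, all higher, and 4 (11.8%) for DCAA, 1 higher and 3 lower. These counts are near the shares over all probe sets. The median difference was -0.09 for DCAC and -0.02 for DCAA, and differences for DCAA ran from -1.71 to 1.14. Gins1, a partner of the helicase, was the nearest for DCAA at 1.14 (limma adjusted p = 0.264), with 0.96 for DCAC (limma adjusted p = 0.947). Orc1 lay on the other side, at 466 and 460 in controls, 483, 389 and 118 with DCAC and 154, 275 and 52.2 with DCAA. Of 54 other mitosis genes 32 were tested and 0 passed. At an unadjusted p under 0.05 there were 3 (9.38%) for DCAC and 5 (15.6%) for DCAA. The median difference over the 32 tested was -0.02 and 0.25, beside -0.029 and -0.008 over all probe sets tested. Over all 54, dim genes included, it was -0.05 and 0.29, beside -0.086 and 0.14 over all probe sets without the filter. The low-signal level, highest on DCAA arrays, enters these last values. Cdca5, sororin, which keeps sister chromatids together, read 219 and 137 in controls, 393, 243 and 553 with DCAC and 573, 530 and 662 with DCAA. All treated arrays lay above both controls, at 1.12 for DCAC (limma adjusted p = 0.754) and 1.76 for DCAA, from 1.004 to 2.51 (limma adjusted p = 0.110).

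Cks1b, a small protein bound to cyclin-dependent kinases, lay on the other side, at 1524 and 1398 in controls, 831, 545 and 1149 with DCAC and 649, 867 and 705 with DCAA. Its differences were -0.86 for DCAC (limma adjusted p = 0.775) and -0.99 for DCAA (limma adjusted p = 0.200). Of 27 genes of growth signals and cycle entry 22 were tested and 0 passed. At an unadjusted p under 0.05 there were 2 (9.09%) for each compound, against 5.02% of all probe sets for DCAC and 12.6% for DCAA. Egfr, the receptor of epidermal growth factor, read 3024 and 1699 in controls, 2771, 6974 and 5764 with DCAC and 4226, 8069 and 6864 with DCAA, at 1.09 and 1.44 (limma adjusted p = 0.188 for DCAA), and 1 DCAC array lay below control 1. Mycn, a growth-promoting transcription factor, read 335 and 299 in controls, 41.1, 46.1 and 109 with DCAC and 179, 176 and 142 with DCAA, lowest with DCAC, at -2.23 (limma adjusted p = 0.523) and -0.94. On DCAC 1 and DCAC 2 Mycn was under the low-signal level (53.6 and 52.8), so its difference with DCAC depends on that level.

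Summed markers of some other cell types stood apart between controls and treated arrays. The summed signal of 10 measured markers of neutrophils and myeloid precursors was 4213 and 4256 in controls, 35577 to 42947 with DCAC and 15077 to 52126 with DCAA. Most of it was Lcn2, a neutrophil protein that hepatocytes also make in inflammation, at 2465 to 2875 in controls and 13245 to 49003 on treated arrays. Without Lcn2 the other 9 summed to 1381 to 1748 in controls and 1832 to 4361 on treated arrays. That of 12 measured markers of T and NK cells was 2300 to 3418 in controls and 1524 to 2286 on treated arrays, and that of 9 erythroid markers was 3744 to 5189 in controls and 2856 to 3717 on treated arrays. Without its brightest gene, Tfrc, the transferrin receptor that other dividing cells carry too, the erythroid sum was 1956 to 2193 in controls and 1951 to 2360 on treated arrays, so it overlapped. Without Cd8a the T and NK sum overlapped as well, at 1776 to 2972 and 1090 to 1947. The 11 hepatocyte markers summed to 407599 to 409274 in controls, 388902 to 516853 with DCAC and 498027 to 538649 with DCAA. Macrophage markers summed to 8782 and 27842 in the controls and to 9760 to 14488 on treated arrays, and stellate cell markers to 4515 to 5947 on all arrays but DCAA 3, at 11774. None of these markers was under the low-signal level on all 8 arrays. The part of these cell types in the values of Ccnd1, Foxm1, Tk1, Cdc20, Rrm2 and Cdk1 was not tested.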

How the data were processed

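Each Affymetrix array was hybridised with labelled RNA from the liver of 1 mouse. Per the submitters' processing notes the authors used GCOS, Affymetrix's own program, with no version stated. The authors deposited 1 linear intensity for each probe set, and every array has a mean of 500.0 when 2% of probe sets are trimmed at each end. No detection calls were used.

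Low signals were raised to the array's 25th percentile (48.8 to 67.4) before log2 transformation. A probe set was tested if it exceeded the median of its array on 3 or more of 8 arrays. The comparisons were fitted in R 4.3.3 with limma 3.58.1 (lmFit, eBayes with an intensity trend) in 1 model of 3 groups, and treated against control in 1 model of 2, two-sided, with Benjamini-Hochberg adjustment over 24531 probe sets. Differences of dimmer genes are between group means of the same log2 values, with no test. Values are given on every array for up to 6 genes per comparison by smallest p and for Mki67, Top2a, Ccnd1, Cdk1, Pcna and Mcm2, and for some others. In each list of other genes those named are among the 4 with the smallest p. The genes, lists and tests were chosen with earlier results of these data known. Alternatives were control 2 included, other scalings, floors and filters, the mean of a gene's probe sets, eBayes without trend, only the groups compared, blocks for replicate number and 3'/5' class, and leaving out each array. The tests were run on simulated data with 200 changed probe sets. Symbols come from the array's annotation, and 34945 of 45037 probe sets carry 1.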

Additional observations from a re-analysis of the deposited data

How the results depend on the processing

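No listed gene passed the threshold under any of 20 alternatives (19 for treated mice), except that Ccnd1 did for DCAA without DCAA 1. Of the values of single genes, 788 were classed as the same, 19 as reversed, 2 as moved and 1 as stronger. The class of the same includes values of Mki67, which was not tested, with a turned sign. With replicate number as a block 0 listed genes passed in each comparison, and 7, 17, 1 and 7 probe sets passed in all, against 8, 20, 1 and 18. Deviations of arrays with the same number correlated between -0.041 and 0.028, and those with different numbers between -0.066 and 0.074. With so few arrays per group, these values cannot show whether the numbers pair the mice. The block left Cdk1 with DCAC at 0.01. Scaling to a common median moved the median of all probe sets to 0.04 for DCAC, -0.12 for DCAA and 0.17 for DCAC minus DCAA. The median of the 37 genes, leaving out each array, ran from -0.20 to 0.10 for DCAC, -0.02 to 0.02 for DCAA, -0.26 to -0.026 for DCAC minus DCAA and -0.16 to 0.077 for treated mice. Genes called for DCAA ran from 0 to 1. With the 3'/5' class as a block that median was 0.10 for DCAC, 0.47 for DCAA and 0.10 for treated mice. It was 0.15 for DCAA with the mean of all probe sets, and for DCAC minus DCAA 0.017 with quantile normalization and 0.070 with a common median. The cause was not tested. Calls over all probe sets stayed within 1.5 times with quantile normalization (9, 15, 1 and 17), without the floor, with an offset and with a filter on mean signal. They were fewer without the trend (0, 0, 0 and 2), with the class block (2, 0, 3 and 5, so more for DCAC minus DCAA) and with 9 arrays (0 in each), and 87 for DCAA without DCAA 1. A common median gave 12, 9, 0 and 13, no filter 1, 4, 0 and 18, and the mean of a gene's probe sets 1, 5, 0 and 13.

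Directions turned for small differences. For DCAC and leaving out each array, Cdk1 ran from -0.40 (without control 1) to 0.95, with -0.16 without DCAC 2, and Pcna from -0.14 to 0.099 (without DCAC 3), with 0.046 without control 3. Pcna was 0.038 with a common median and 0.099 with the class block. For DCAA, Pcna was 0.022 with the class block and Mcm2 -0.0066 with 9 arrays. For DCAC minus DCAA, Top2a was 0.020 with a common median and ran from -0.38 to 0.14 (without DCAC 3), with 0.021 without DCAA 3. Ccnd1 ran from -0.080 (without DCAC 3) to 0.54, with -0.026 without DCAA 3. For treated mice, Rrm2 was -0.0021 with the mean of probe sets, Pcna 0.099 with the class block and Mcm2 0.13 with the mean of probe sets. Mcm2 ran from -0.12 to 0.094 (without DCAC 3), above zero also without control 3 or DCAC 2. Mki67, which was not tested, took either sign in every comparison, depending on the array left out. It ran from -0.53 to 0.36 for DCAC and from -0.25 to 0.30 for DCAA. For DCAC minus DCAA it ran from -0.49 to 0.39, and for treated mice from -0.30 to 0.12.

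The limits are few arrays, 2 of them controls, and dim signals: 12 of 37 genes were not tested. Where several probe sets of a gene were bright enough, all had 1 direction for 6 of 13 genes with DCAC and 7 of 13 with DCAA.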
